A study of Homo sapiens with 4 samples.

Results

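The genes described here are the transcription factor MYC and factors that build ribosomes in the nucleolus, read on 4 Affymetrix expression arrays of human lung adenocarcinoma cells. Of 53 listed genes, 47 were read among the 19740 genes of the series. The list was written with earlier results of these data known. Each gene was represented by the probe set selected on its signal, the brightest by mean log2 signal over the 4 arrays among probe sets annotated to that gene alone. NOP56, DKC1 and BOP1 had only probe sets annotated with several symbols, and EBNA1BP2, GNL3 and DDX18 had no named probe set, so these 6 were not analysed here.

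CL1-0 and CL1-5 are established lines of shared origin, CL1-5 being the more invasive derivative. The 4 groups, of 1 array each, were CL1-0 with an empty control vector, CL1-0 with a vector for PSAT1 (an enzyme of serine synthesis), CL1-5 with a non-silencing shRNA vector and CL1-5 with an shRNA vector against PSAT1. All groups were stably transduced lines held in puromycin for 2 weeks. The labels do not say whether a line was a pool or a clone. The series asked how raising PSAT1 in one line and lowering it in the other changes expression, and no group has a replicate. A difference between 2 arrays therefore has no error estimate and no test, and it carries whatever else set those cultures and arrays apart, beside the construct.

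Ribosomes are assembled in the nucleolus, where RNA polymerase I transcribes the ribosomal RNA precursor. Small nucleolar ribonucleoproteins (snoRNPs) modify this precursor, and large sets of assembly factors fold and cut it into the 40S and 60S subunits. MYC, which binds DNA with its partner MAX at the E-box motif CACGTG, is a known activator of many of these genes, and tumour cells with high MYC are known for enlarged nucleoli.

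The promoters are shown because this motif was common in them. RefSeq promoter sequences (GRCh38.p14, 250 bases before to 50 after the gene start) were matched for 39 of the 47 members. CACGTG, which reads the same on both strands, occurred in 15 of the 39, or 38.5%. It occurred in 7.43% of all 27305 promoters and in 10.9% of the 7637 promoters of genes whose brightest array reached the 75th percentile of all signals. Of the 17 matches in the members, 6 lay wholly before the gene start, in 5 genes, and the other 11 reached or followed it. Those 5 genes are UTP14A, UTP18 and UTP20, factors of the small subunit processome, NOP10, a core protein of box H/ACA snoRNPs, and NOL8, a factor of 60S assembly. The 250 bases before their starts are printed with the motif in capitals.
UTP14A: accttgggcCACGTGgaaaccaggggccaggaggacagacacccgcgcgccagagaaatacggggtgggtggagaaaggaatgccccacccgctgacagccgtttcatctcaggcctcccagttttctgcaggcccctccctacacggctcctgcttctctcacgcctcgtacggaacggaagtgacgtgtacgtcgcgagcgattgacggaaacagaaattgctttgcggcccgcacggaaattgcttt
UTP18: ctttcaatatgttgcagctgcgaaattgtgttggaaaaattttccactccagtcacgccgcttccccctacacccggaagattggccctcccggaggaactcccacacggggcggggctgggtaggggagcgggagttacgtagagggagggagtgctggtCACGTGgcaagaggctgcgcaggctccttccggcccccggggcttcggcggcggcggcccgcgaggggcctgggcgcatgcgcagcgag
UTP20: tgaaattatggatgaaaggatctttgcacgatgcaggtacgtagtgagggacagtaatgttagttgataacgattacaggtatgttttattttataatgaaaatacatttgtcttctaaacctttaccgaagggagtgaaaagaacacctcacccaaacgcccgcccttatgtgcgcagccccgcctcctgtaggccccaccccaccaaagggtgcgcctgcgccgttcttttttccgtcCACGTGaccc
NOP10: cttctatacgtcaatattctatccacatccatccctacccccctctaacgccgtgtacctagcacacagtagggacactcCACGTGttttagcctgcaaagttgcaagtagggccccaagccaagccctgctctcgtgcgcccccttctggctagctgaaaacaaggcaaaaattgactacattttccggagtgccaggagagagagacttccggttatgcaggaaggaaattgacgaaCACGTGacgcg
NOL8: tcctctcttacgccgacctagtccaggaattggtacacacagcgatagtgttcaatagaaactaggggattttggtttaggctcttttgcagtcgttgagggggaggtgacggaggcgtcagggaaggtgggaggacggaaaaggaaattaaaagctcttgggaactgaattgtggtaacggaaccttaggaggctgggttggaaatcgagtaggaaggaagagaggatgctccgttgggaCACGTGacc

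These stretches are chrX:129905914-129906163 (plus strand) for UTP14A, chr17:51260296-51260545 (plus) for UTP18, chr12:101279855-101280104 (plus) for UTP20, chr15:34343137-34343386 (minus) for NOP10 and chr9:92325351-92325600 (minus) for NOL8. The motif began 9, 10 and 11 bases before the start in NOL8, UTP20 and NOP10. It began 89 bases before in UTP18 and 241 in UTP14A, and NOP10 held a further copy 170 bases before. The match is a description of the letters, not of MYC binding. Members with and without the motif had nearly the same median log2 ratios, -0.39 and -0.41 in the CL1-0 pair and 0.16 and 0.13 in the CL1-5 pair.

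All 47 members were read above the floor, a signal of 49.0 at the pooled median of all probe sets, on all 4 arrays. Their signals ran from 442 to 18866 with a median of 3036 on the CL1-0 vector array, from 258 to 17805 (median 2143) with PSAT1, from 196 to 13390 (median 1287) on the CL1-5 non-silencing array and from 215 to 14630 (median 1351) with the hairpin. Signals of different probe sets differ in probe affinity, so levels are compared only within a gene. Below, "rose" and "fell" mean at least 1.5-fold between 2 arrays, a rule of size alone.

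**Figure D1:**
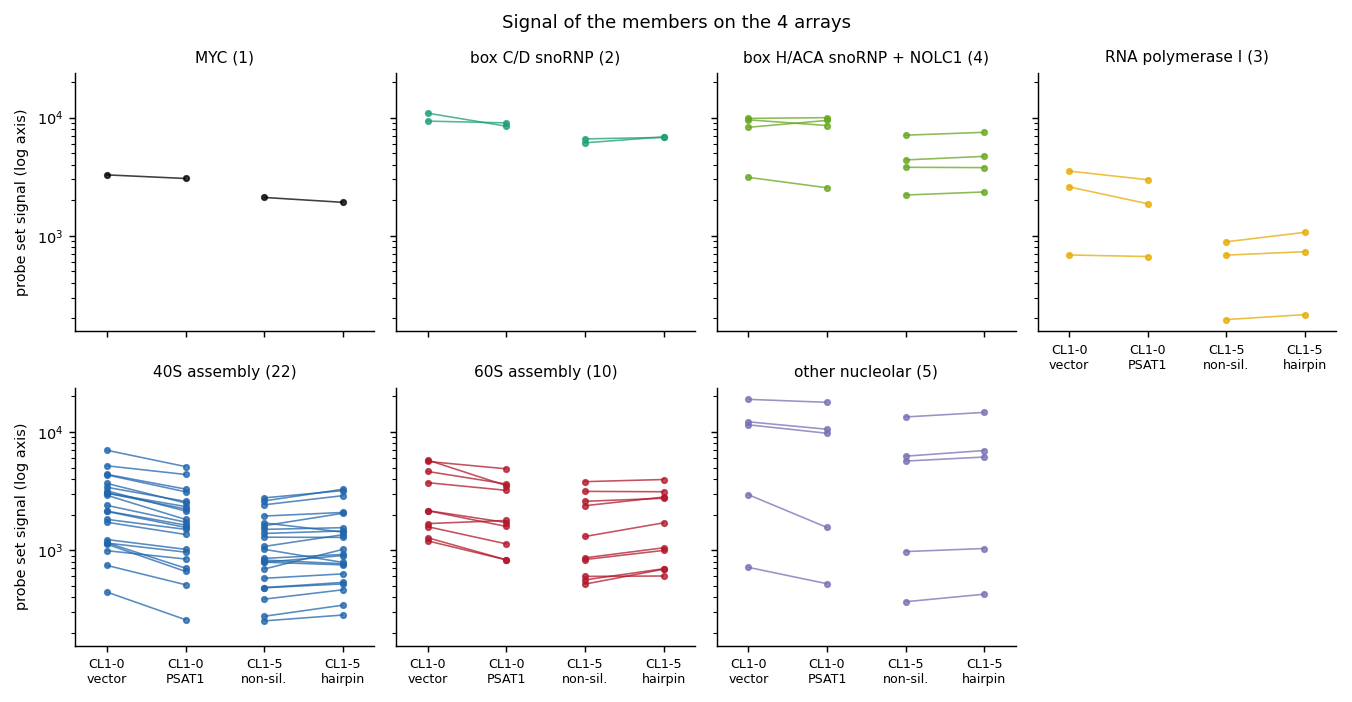
Probe set signal (log axis) of the 47 members on the 4 arrays, 1 line per gene within each pair of arrays, in 7 panels by role with the number of genes. All 22 lines of the 40S assembly panel slope down from vector to PSAT1 in CL1-0, and 17 of them slope up from non-silencing to hairpin in CL1-5.

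PSAT1, read first as a check of the labels, fell in CL1-5 from 1760 to 143 with the hairpin. In CL1-0 it read 5494 with its vector against 4214 without, so that these arrays show the lowering of PSAT1 far more plainly than its raising. The labels call the cells alveolar type II. Of 8 named markers of that type only ABCA3 reached the 75th percentile on any array (268 on the CL1-0 PSAT1 array). SFTPC read between 131 and 151, the transcription factor NKX2-1 between 63 and 91, and SFTPD and SLC34A2 were under the floor on every array. Of 6 epithelial markers, EPCAM, CDH1 and KRT19 were also under the floor on every array, while the keratins KRT8 (77.8 and 60.4 in CL1-0, 1271 and 1675 in CL1-5) and KRT18 (757 and 635, 5308 and 5657) were far higher in CL1-5. The 6 summed to 969 and 822 in CL1-0 and 6742 and 7484 in CL1-5, the largest difference between the lines among these lists. No immune marker of 3 exceeded the floor. The summed signal of 7 fibroblast markers was 779, 434, 486 and 501 for vector and PSAT1 in CL1-0, then for the non-silencing vector and the hairpin in CL1-5, COL3A1 accounting for most of the fall in CL1-0 (312 to 27). The 8 alveolar markers summed to 810, 877, 642 and 729, and 4 endothelial markers to 139, 111, 238 and 190. The part of such differences in the results was not tested.

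In CL1-0 with PSAT1, ribosome assembly factors were lower almost throughout, by modest amounts, while MYC itself hardly differed. Log2 ratios were negative for 44 of 47 members (93.6%), with a median of -0.38. Of all 13167 measured genes, 47.5% had a ratio above 0 and 51.9% below, with a median of -0.02. By size, 28 members (59.6%) were at least 1.25-fold lower, against 15% of all genes, and 0 were as much higher, against 19.9%. At 1.5-fold, 7 members fell (14.9%), against 4.05% of all genes, and 0 rose, against 8.97%. None reached 2-fold in either direction, where 1% of all genes were lower and 2.41% higher. Rises made up 68.9% of all 1.5-fold differences in this pair, 62.3% under quantile normalization and 57.0% under median centring. The members' choice was made with this pattern known, so these counts describe the members and support nothing beyond them.

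MYC read 3275 with vector and 3052 with PSAT1 in CL1-0 (log2 ratio -0.10), and 2110 with the non-silencing vector and 1919 with the hairpin in CL1-5 (-0.14). It was thus slightly lower with the construct in both lines, by less than 1.25-fold. MYC had 1 named probe set, so no other probe set checks it.

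The 7 members that fell in CL1-0 came from 3 roles. NPM3, a histone chaperone of the nucleoplasmin family, read 2945 with vector and 1556 with PSAT1, a 1.89-fold fall, and 973 and 1033 on the CL1-5 arrays. Its relative NPM1, nucleophosmin, read 18866 and 17805 in CL1-0 and 13390 and 14630 in CL1-5, so the members of this family differed in size of change. In 40S assembly, NOL6, an early factor of the small subunit processome, read 442 and 258 in CL1-0 (1.71-fold lower) and 252 and 283 in CL1-5.

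UTP15, part of the processome subcomplex that joins ribosomal RNA transcription to processing, read 1123 and 661 in CL1-0 (1.70-fold lower) and 385 and 462 in CL1-5. RRP12, which serves maturation and export of precursor subunits, read 1155 and 704 in CL1-0 (1.64-fold lower) and 481 and 518 in CL1-5. TSR1, a factor of late 40S precursors, read 2913 and 1819 in CL1-0 (1.60-fold lower) and 1943 and 2085 in CL1-5. On the brightest probe set, all of these were lower with PSAT1 in CL1-0 and slightly higher with the hairpin in CL1-5. Further probe sets of TSR1 had log2 ratios of 0.06, -0.17 and -0.16 in CL1-5, and those of RRP12 had 0.19 and -0.16. Those of UTP15 and NOL6 had 0.09 and 0.15.

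In 60S assembly, NOP16 read 5789 and 3516 in CL1-0 (1.65-fold lower) and 3798 and 3959 in CL1-5. NOP2, which methylates 28S ribosomal RNA, read 1274 and 828 in CL1-0 (1.54-fold lower) and 516 and 690 in CL1-5. Other probe sets of these genes bore on some of the sizes. The next probe set of NOP16 had a log2 ratio of -1.08 in CL1-0, and that of NOL6 -0.55. That of UTP15 had -0.20 and that of RRP12, at the dim signals of 78.1 with vector and 67.1 with PSAT1, had -0.22. TSR1 had further probe sets at -0.84, 0.19 and -0.19. Of these 5 genes, only NOP16 and TSR1 therefore had a further probe set that also reached 1.5-fold, and NPM3 and NOP2 had no other named probe set.

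By role, all 22 members of the small subunit processome and 40S assembly had negative ratios in CL1-0 on the brightest probe set. They ran from -0.23 (NOP14) to -0.78 (NOL6), with a median of -0.45. The 10 members of 60S assembly had a median of -0.40, with NOP16 lowest at -0.72 and NOL8 the exception at 0.09 (1678 with vector, 1784 with PSAT1). PES1 and WDR12, which work in a complex with BOP1, had -0.48 and -0.35. The other nucleolar proteins had a median of -0.24, with NCL, nucleolin, at -0.21 (12184 and 10535), the RNA helicase DDX21 at -0.24 and MYBBP1A at -0.46. Further probe sets were positive for LTV1 (0.37, under the floor with vector), TSR1 (0.19) and DDX56 (0.51), and that of WDR36 had -1.02. Of all 40 further probe sets of members, 35 were negative in this pair.

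The genes that transcribe and modify ribosomal RNA had smaller median ratios in CL1-0, on the brightest probe set of each gene, than the assembly factors. The medians were -0.24 for RNA polymerase I subunits, -0.21 for box C/D proteins and -0.07 for box H/ACA proteins taken with NOLC1. Of RNA polymerase I, the largest subunit POLR1A had -0.04 (688 and 668), the second largest, POLR1B, -0.24 (3525 and 2979) and POLR1C, shared with RNA polymerase III, -0.47 (2592 and 1866). Of box C/D snoRNPs, which guide ribose methylation, the scaffold NOP58 had -0.37 (10894 and 8452) and the methyltransferase fibrillarin, FBL, -0.05 (9331 and 9016). Of box H/ACA snoRNPs, which guide pseudouridylation, NOP10 had 0.19 (8270 and 9457), NHP2 0.02 (9839 and 9980) and GAR1 -0.29 (3122 and 2548), and the snoRNP chaperone NOLC1 had -0.16 (9568 and 8561). NOP10, NHP2 and NOL8 were the 3 positive members, of which 2 stayed positive under median centring. Further probe sets of these genes did not all share the small ratios. Both of NOLC1 had -0.84 (2967 to 1655 and 641 to 357, past 1.5-fold), and those of POLR1A had -0.32 and -0.26. Those of POLR1B had 0.06, 0.11 and -0.13, so its sign in this pair differed among its own probe sets. The difference between roles was not tested.

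**Figure D2:**
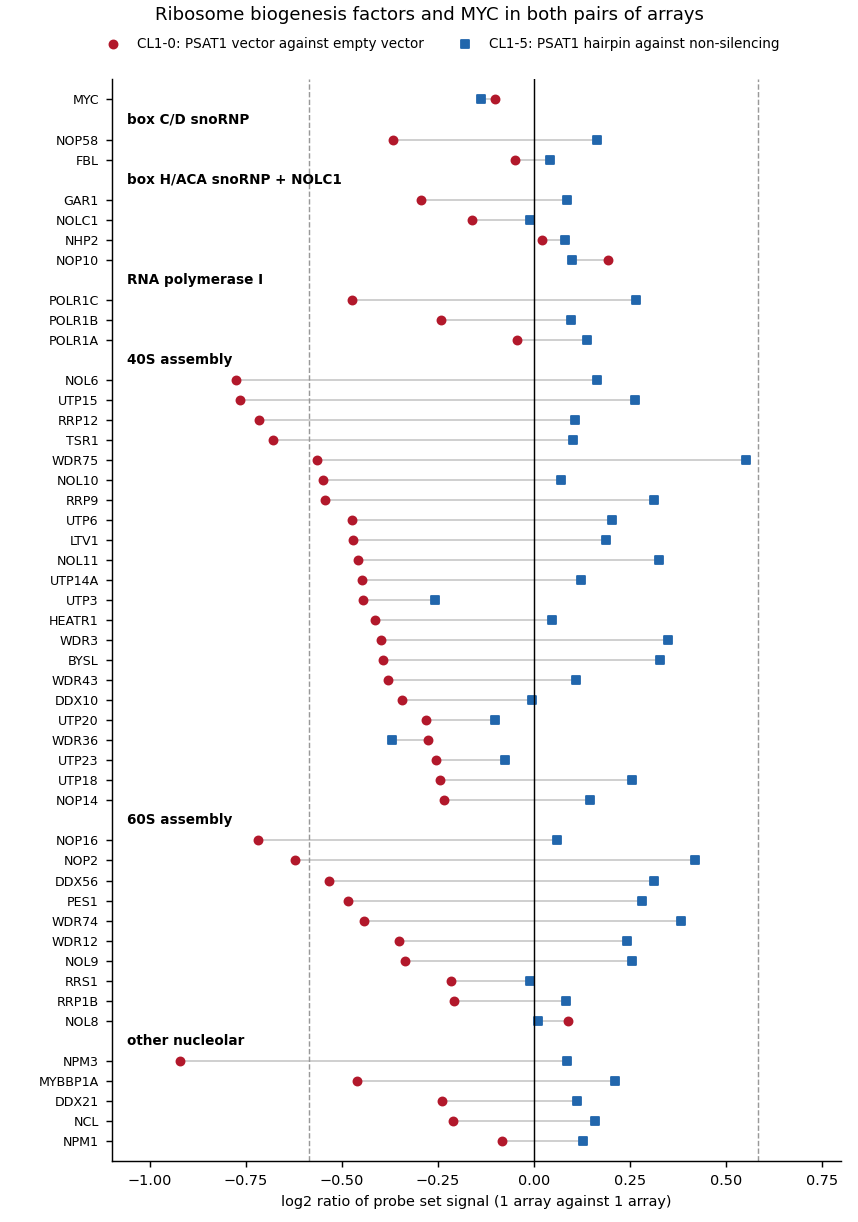
Log2 ratio of signal for each of the 47 members, by role. Red circles are CL1-0 with PSAT1 against vector, blue squares are CL1-5 with the hairpin against non-silencing, and dashed lines mark 1.5-fold. Circles lie left of 0 for 44 members and squares right of 0 for 39, and MYC lies left of 0 for both.

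In CL1-5 with the PSAT1 hairpin, most members were slightly higher, none by 1.5-fold. Log2 ratios were positive for 39 of 47 (83.0%) with a median of 0.12, against 52.7% of all 12852 measured genes, whose median was 0.02. At least 1.25-fold higher were 6 members (12.8%), against 7.25% of all genes, and 1 was as much lower (2.13%), against 8.14%. No member rose or fell by 1.5-fold, where 1.67% of all genes were higher and 2.12% lower, nor by 2-fold, where 0.389% were higher and 0.405% lower. The shift is thus seen in the signs and is small in size.

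WDR75, in the same processome subcomplex as UTP15, came nearest to 1.5-fold, with 692 on the non-silencing and 1015 on the hairpin array (1.47-fold higher), and read 3171 and 2143 with vector and PSAT1 in CL1-0 (1.48-fold lower). NOP2 was 1.34-fold higher, and WDR74, a factor of nuclear 60S precursors, read 1305 and 1703 (1.30-fold higher). WDR3, a WD-repeat protein of the processome, read 1611 and 2050 (1.27-fold higher). BYSL, bystin, of 40S precursors, read 1076 and 1351 (1.26-fold higher) and NOL11, also a processome factor, 2610 and 3274 (1.25-fold higher). These are the 6 members at 1.25-fold or more, and the same 6 were at least 1.25-fold lower in CL1-0.

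The 8 members with negative ratios in CL1-5 were WDR36 (-0.37, 1017 and 787), UTP3 (-0.26, 1700 and 1422), MYC (-0.14), UTP20 (-0.10), UTP23 (-0.07) and, at -0.01 each, DDX10, NOLC1 and RRS1. Under median centring 5 members were negative. WDR36 and WDR3 belong to the same processome subcomplex and stood on opposite sides of 0. The other probe set of WDR36, however, had only -0.04 (399 and 387). By role, medians were 0.25 for 60S assembly, highest in NOP2 (0.42) and lowest in RRS1, and 0.14 for 40S assembly, 17 of 22 positive. RNA polymerase I subunits had ratios of 0.14 (POLR1A), 0.10 (POLR1B) and 0.27 (POLR1C), and further probe sets of POLR1A had -0.17 and -0.02. The box C/D proteins NOP58 and FBL had 0.17 and 0.04, and the H/ACA proteins NOP10, GAR1 and NHP2 had 0.10, 0.09 and 0.08. The other nucleolar proteins ran from 0.09 (NPM3) to 0.21 (MYBBP1A). The other probe set of MYBBP1A had -0.03, while those of NPM1 had 0.21 and 0.19 and that of DDX21 had 0.18.

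**Figure D3:**
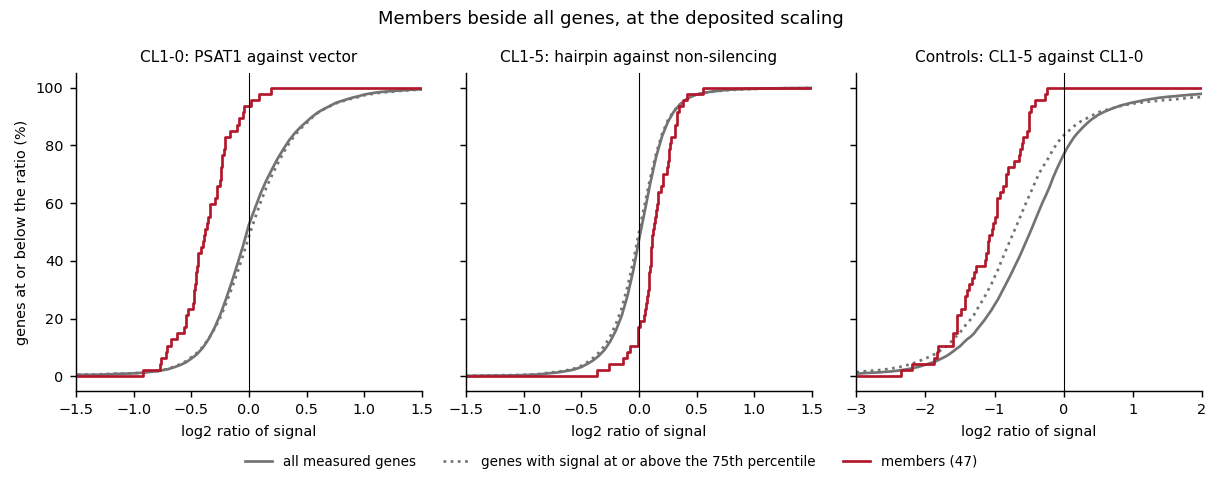
Share of genes (%) at or below each log2 ratio, for the 47 members (red steps), all measured genes (grey line) and genes whose brighter array reached the 75th percentile (dotted), in each comparison at the deposited scaling. Over most of their range the members' steps lie left of the grey line in CL1-0 and right of it in CL1-5, and in the comparison of control arrays all curves lie mostly left of 0.

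Other probe sets of the same genes were read on the same arrays, and they are not outside the choice of members, which was made with results of these arrays known. In the CL1-0 pair, 40 other probe sets of 24 members were measured, of which 35 were negative (87.5%), with a median of -0.32, against 50.9% and -0.01 for the 11624 such probe sets of all genes. In the CL1-5 pair, 35 of 20 members were measured, of which 22 were positive (62.9%) and 13 negative, with a median of 0.07, against 46.9% positive and -0.01 for the 10313 of all genes. Brightness was also set beside the pattern. Among the 2088 genes at or above the members' median signal, 60.4% were negative and 14.8% at least 1.25-fold lower in CL1-0, and 52.9% were positive in CL1-5. Where a gene had several probe sets, their log2 ratios differed with an SD of 0.220 in the CL1-0 pair and 0.135 in the CL1-5 pair. This SD does not stand in for a replicate.

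Set side by side, the pairs share no array. The ratio was negative in CL1-0 and positive in CL1-5 for 36 of 47 members (76.6%), against 27.0% of the 9118 genes reaching the 75th percentile on any array. It was negative in both for 8 of 47, MYC among them, a share near the 19.8% of those genes. It was positive in both for 3 (6.38%, NOP10, NHP2 and NOL8), against 21.2%. None was positive in CL1-0 and negative in CL1-5, and the share of those genes with these signs is not given here. At 1.25-fold in each, 6 members (12.8%) were lower in CL1-0 and higher in CL1-5, against 1.80% of those genes. Members with lower ratios in CL1-0 tended, only loosely, to have higher ratios in CL1-5. Across the 47 genes, which are not independent replicates, Pearson's r was -0.33 and Spearman's rho -0.43, and across the 9118 genes -0.15 and -0.18. NPM3, with the largest fall in CL1-0, had 0.09 in CL1-5.

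**Figure D4:**
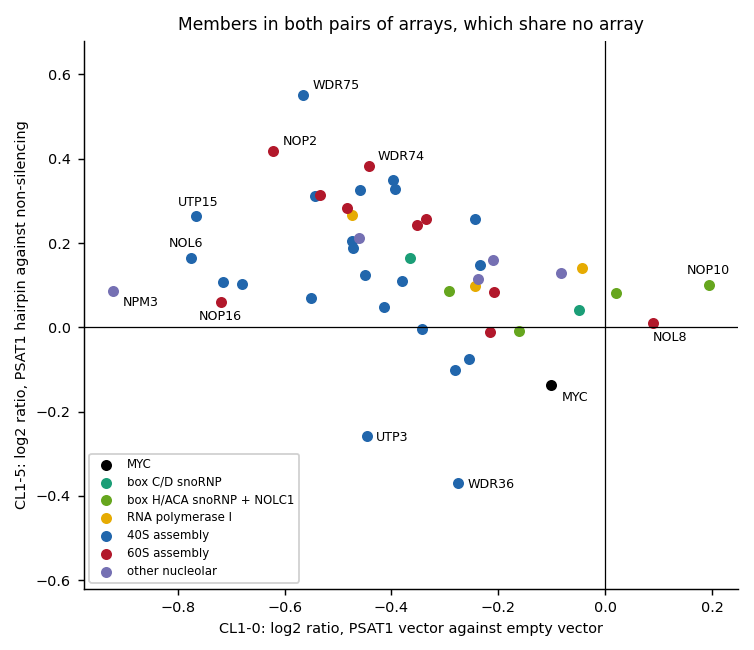
Log2 ratio in the CL1-0 pair (horizontal) against that in the CL1-5 pair (vertical) for the 47 members, coloured by role. The upper left holds 36 members, MYC lies at -0.10 and -0.14, and none lies at the lower right.

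The lists of pathway genes outside the members, also written with earlier results known, gave these values. Of 31 other 40S assembly factors, 29 were negative in CL1-0 with a median of -0.33, and 6 fell, most in PNO1 and RRP7A (-0.79 each), both factors of small subunit precursors. Of 42 other 60S factors, 41 were negative with a median of -0.42, and 6 fell, most in RRP15 (-0.68) and URB2 (-0.67). None of either list rose. In CL1-5, 25 of the 31 and 31 of the 42 were positive, with medians of 0.18 and 0.12 and none at 1.5-fold. The largest ratios there were IMP4 (0.42) and RIOK2 (0.37) among 40S factors, and MDN1 (-0.56), an ATPase that remodels 60S precursors, and PAK1IP1 (0.53) among 60S factors. These lists thus had the signs of the members in both pairs. Of all measured genes, 51.9% were negative, 4.05% fell and 8.97% rose in CL1-0. In CL1-5, 52.7% were positive, 1.67% rose and 2.12% fell. The same shares stand beside the lists that follow.

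Other RNA polymerase I genes had smaller ratios, with a median of -0.18 over 17 in CL1-0, none of which rose or fell (largest TAF1A and POLR1G, -0.57 each), and 0.06 in CL1-5 (TAF1C 0.48, POLR2L 0.38). Genes of snoRNP assembly had medians of -0.29 and 0.11 over 10, with 1 fall in CL1-0, ZNHIT6 (-0.62), followed by NAF1 (-0.55), and the largest CL1-5 ratios in ZNHIT6 (0.42) and RUVBL1 (0.30). The RNA exosome, which trims ribosomal RNA precursors, had medians of -0.25 and 0.11 over 13. Its subunit EXOSC6 rose in CL1-0 (0.93), C1D (-0.62) and EXOSC9 (-0.59) fell, and EXOSC2 (0.40) and EXOSC9 (0.38) had the largest ratios in CL1-5.

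Genes of the MYC network, its partners, antagonists and turnover, had medians of 0.01 in CL1-0 and -0.06 in CL1-5 over 15. In CL1-0 its relative MYCL rose from 94.5 to 198 (1.07), the MAX-binding antagonist MXI1 rose from 1081 to 1625 (0.59) and MLX fell (-0.59). In CL1-5 the largest ratios were MGA (-0.39) and MXI1 (-0.30), neither at 1.5-fold. Known MYC targets outside the nucleolus had a median of -0.24 in CL1-0, with 20 of 24 negative (83.3%, against 51.9% of all genes). There were 3 falls (12.5%, against 4.05%), cyclin D2, CCND2 (332.9 to 78.5), TERT (-0.77) and RCC1 (-0.61). In CL1-5 these targets had 0.06 over 23, with 18 positive (78.3%, against 52.7%). None was at 1.5-fold there, PHB1 (0.25) and SRM (0.23) being largest. The p53 and nucleolar stress list had medians of -0.02 over 5 and -0.16 over 4, with no gene at 1.5-fold. CDKN1A had -0.30 in both pairs, RPL11 -0.08 in CL1-0 and MDM4 -0.49 in CL1-5.

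Between the control arrays of the lines, members were lower in CL1-5 than in CL1-0, in part with the whole array. The CL1-0 control carried an empty vector and the CL1-5 control a non-silencing shRNA vector, so line and vector cannot be told apart. All 47 ratios were negative, with a median of -1.04. All 13706 measured genes had a median of -0.48, and 23.2% of them had a ratio above 0. At the deposited scaling 38 members (80.9%) were at least 1.5-fold lower, against 44.3% of all genes, and 25 (53.2%) at least 2-fold lower, against 24.7%. None was higher by 1.5-fold or 2-fold, against 8.39% and 5.14%. Among genes reaching the 75th percentile, 57.7% were 1.5-fold and 34.4% 2-fold lower.

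The size of this difference depended on the scaling. Quantile normalization brought the median of all genes to 0.00 and that of the members to -0.37, with 35 of 47 still negative, 17 (36.2%) at least 1.5-fold lower against 19.1% of genes, and 5 (10.6%) at least 2-fold lower against 8.91%. Median centring gave 0.09 for all genes and -0.42 for the members, 37 negative, 18 (38.3%) against 18.1% and again 5 (10.6%) against 8.59%. Of all 1.5-fold differences, 15.9% were rises as deposited, 48.9% under quantile normalization and 54.3% under centring. The share of members at 2-fold was thus near that of all genes once the arrays were scaled alike, and the share at 1.5-fold was above it. Shares among genes reaching the 75th percentile are not given here for the rescaled arrays. At the deposited scaling those genes were lower more often than all genes, so the part of brightness in the 1.5-fold share was not tested.

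On the brightest probe set of each gene, the same 5 members were 2-fold lower in CL1-5 under all 3 scalings. They were POLR1B (3525 in CL1-0 and 686 in CL1-5, log2 ratio -2.36 as deposited and -1.65 after quantile normalization), WDR75 (3171 and 692, -2.20 and -1.48), UTP14A, which activates the helicase that frees the processome (2125 and 578, -1.88 and -1.13), WDR43, of the same subcomplex as WDR75 (3043 and 853, -1.84 and -1.11), and POLR1A (688 and 196, -1.81 and -1.20). Other named probe sets, at the deposited scaling, had -2.51, -1.17 and -2.42 for POLR1B but smaller differences for POLR1A, -0.99 and -1.25. That of UTP14A, at 67.1 in CL1-0 and under the floor in CL1-5, had -0.45 against the floor, and WDR75 and WDR43 had no other. The next largest deposited ratios were LTV1 and NPM3 (-1.60 each), HEATR1 (-1.55), UTP15 and POLR1C (-1.54 each).

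At the other end, RRS1, which brings 5S ribosomal RNA into the 60S precursor, had -0.24 as deposited and 0.41 after quantile normalization, and WDR36 had -0.27 and 0.46, with 0.47 as deposited on its other probe set. FBL had -0.50 and 0.01. MYC had -0.63 as deposited (1.55-fold lower), 0.05 after quantile normalization and -0.02 after median centring, so its direction between the lines is not settled. For ACTB, the control probe set at the 3' end over that at the 5' end gave 1.18 (vector) and 1.22 (PSAT1) for CL1-0 arrays. It gave 1.34 (non-silencing) and 1.38 (hairpin) for CL1-5 arrays. For GAPDH the same ratio was 1.07 and 1.08 for CL1-0 and 1.09 and 1.10 for CL1-5, in the same order. The lines thus differ in this sign of RNA or labelling quality by ACTB but hardly by GAPDH. Its part in the comparison was not tested.

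Among other pathway genes, control arrays of CL1-5 had the largest deposited differences from CL1-0 in IMP3 (-2.45) and DIMT1 (-2.19) for 40S assembly, RSL24D1 (-1.98) and URB2 (-1.72) for 60S assembly, and POLR1F (-1.68) and RRN3 (-1.67), a polymerase I initiation factor, for transcription. They were NAF1 (-1.68) and ZNHIT6 (-1.54) for snoRNP assembly, and EXOSC6 (-2.97) and EXOSC8 (-2.46) for the exosome. In the MYC lists they were USP28 (-1.63), FBXW7 (-1.44) and SLC7A5 (-1.72), and CCND2 (10.5 in CL1-5, under the floor) was at least 6.79-fold lower. The cell cycle inhibitor CDKN1A read 84 in CL1-0 and 527 in CL1-5, and CDKN2A, under the floor in CL1-5, was at least 12.4-fold lower there.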

How the data were processed

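The authors summarised each array with MAS5 into a linear intensity for every probe set, per the submitters' processing notes. Its version, scaling target and detection calls are not given in the sources used here. Labelled cRNA came from 6 ug of total RNA, per the labels. The table held 54675 probe sets, 62 of them controls. Per the platform annotation, 41097 had 1 gene symbol and 1801 several, and 11777 were not listed with a gene. Symbols were updated by gene ID for 41043.

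Signals under the floor (49.0, the 50th percentile of non-control probe sets over all arrays) were set to it and log2 transformed, and a gene was measured in a pair if at least 1 array exceeded it. Genes of the Y chromosome and X inactivation were left out. Ratios, counts and medians were computed in Python 3.11.15 (pandas 2.3.3, numpy 2.4.6) and tested on simulated data. With 1 array per group there was no test; the number of arrays limits precision. Members and lists were chosen with earlier results of these data known. Named were MYC, members at 1.5-fold or more (up to 10 per direction), the extremes of each role, the 3 brightest members and the 2 largest ratios of each pathway list. Other genes were named after their values were seen. The 1.25-fold threshold was added after the data were seen. Alternatives were quantile normalization, median centring (over probe sets brighter than the floor), floors at the 25th and 65th percentiles, and other choices of probe set.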

Additional observations from a re-analysis of the deposited data

Results flagged for a closer look

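In each of 6 members the arrays of CL1-0 and CL1-5 differed by at least 1.25-fold in opposite directions, lower with PSAT1 in CL1-0 and higher with the hairpin in CL1-5. With 1 array per group these differences were not tested. WDR75 had log2 ratios of -0.57 in the CL1-0 pair and 0.55 in the CL1-5 pair. NOP2 had -0.62 and 0.42, and WDR74 -0.44 and 0.38, in the same order. WDR3 had -0.40 and 0.35, NOL11 -0.46 and 0.33, and BYSL -0.39 and 0.33. Of these, only WDR74 and WDR3 had more than 1 named probe set, and that of WDR3 was under the floor. The second probe set of WDR74 had -0.49 and 0.40.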

How the results depend on the processing

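The members' median stayed negative in the CL1-0 pair (-0.45 to -0.33) and positive in the CL1-5 pair (0.10 to 0.16) under all 7 alternatives. The count of CL1-0 falls, 7 as reported, was 11 under median centring and 4 without probe sets that may match several transcripts, which leaves 36 members. At 2-fold it was 1 in that setting and 2 with the second brightest probe set, where 24 members had one. With that probe set 15 of 20 members were positive in the CL1-5 pair and 1 was past 1.25-fold in opposite directions in the pairs. Median centring put 1 member, WDR75, past 1.5-fold in CL1-5 and in opposite directions in the pairs. Between the lines, quantile normalization and median centring moved the members' median from -1.04 to -0.37 and -0.42, the positive members from 0 to 12 and 10, those 1.5-fold lower from 38 to 17 and 18, those 2-fold lower from 25 to 5 under both, and MYC from -0.63 to 0.052 and -0.019. The mean over probe sets gave 1 positive member there, and the second brightest probe set 3 positive, 16 at 1.5-fold and 11 at 2-fold among 23. The floors at the 25th and 65th percentiles changed no member's value, since all lie above them. MYC could not be read without multi-transcript probe sets or with a second one. No paired analysis was possible because each group has 1 array and the labels carry no replicate numbers.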

Other observations

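The control probe sets for ribosomal RNA itself, the product of the pathway, were lower with either construct. The 28S control at the 5' end read 5445 with vector and 3546 with PSAT1 in CL1-0, and 8146 with the non-silencing vector and 5351 with the hairpin in CL1-5. The 18S control at the 5' end read 3721 and 2946 in CL1-0 and 9937 and 8140 in CL1-5. The other 4 ribosomal RNA control probe sets were also lower with the construct in each line. Standard Affymetrix labelling primes on poly(A) tails, so these signals are not a measure of ribosomal RNA level.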
